A study of Rattus norvegicus with 9 samples.

Results

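The heat shock and DnaJ chaperone genes were taken by their names in the array platform's annotation: every gene whose only symbol began with Hsp, Dnaj or Cct the last followed by a digit, together with Hyou1, Tcp1, Pdia3, Pdia4, Calr and Canx. No measured value entered this choice. It gave 67 members among the 10411 genes with a symbol of their own on the array, and each was represented by its probe set of highest mean. Of the 67 members, 54 (80.6%) lay above the filter on low signal, as did 6793 (65.2%) of all genes. The filter left out the lowest 40% of probe sets by mean, at a mean log2 value of 3.22. The choice by name also took Hspg2, which encodes perlecan, a proteoglycan of the extracellular matrix and not a chaperone. The animals were 9 males of the inbred Lewis strain, untreated, and total RNA of each one's prefrontal cortex was put on 1 Affymetrix array. The rats form 1 group, were killed 12 days after their last behavioural test, and carry 4 behavioural values each, for startle, for locomotion, for the plus maze and for feeding on sugar, with no unit given.

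Molecular chaperones bind unfolded or partly folded proteins and help them reach or keep their native shape. Hsp70 proteins do this in cycles of ATP hydrolysis, which J proteins, the products of the Dnaj genes, start by bringing clients and stimulating the ATPase, and which Hsp110 proteins help to reset by exchanging the nucleotide. Hsp90 takes over late folding steps of kinases and receptors, the chaperonin CCT encloses actin and tubulin, and separate sets of chaperones serve the endoplasmic reticulum and mitochondria. In neurons, J proteins also keep synaptic vesicle proteins folded and strip clathrin from vesicles. The comparison that the study's title sets out is between mRNA levels in the brain and behaviour among genetically alike animals.

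Startle values ran from 67.7 in rat 8 to 501 in rat 3, locomotion from 536 in rat 3 to 1102 in rat 1, plus maze from 0 in rats 3 and 9 to 18.7 in rats 2 and 6, and sugar feeding from 0.8 in rat 6 to 4.7 in rat 4. The median log2 value of an array lay between 4.11 and 4.28, and 2 arrays correlated at 0.988 to 0.998. The arrays of rats 8 and 9 are known from earlier work on these data to stand apart, so each relation is also given over the other 7 rats. Markers of neurons (5 of 5 with a probe set), interneurons (6 of 6), astrocytes (6 of 6) and oligodendrocytes (5 of 5) lay above the filter. Of the cortical excitatory neuron markers, Slc17a7 and Camk2a lay above it and Tbr1 below it. Th and Omp, which mark the olfactory bulb, and Drd1, Drd2 and Adora2a of the 4 striatal markers with a probe set, lay below the filter, and the striatal marker Ppp1r1b lay above it. In tissue of mixed cells, fewer cells of a type and less RNA per cell cannot be told apart.

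Hspa1a and most small heat shock genes lay below the filter in this cortex. The stress-induced Dnajb1 lay above it, with a median of 9.06, as did every member of the classes listed last. Below the filter were 5 of 6 small heat shock genes (Hspb1, Hspb2, Hspb3, Hspb7 and Hspb8), 3 of 7 cytosolic Hsp70 and Hsp110 genes (Hspa1a, Hspa1l and Hspa12b), 4 of 14 J proteins outside the named classes (Dnajb3, Dnajb13, Dnajc17 and Dnajc22) and Hspbap1. Their mean log2 values ran from 2.18 to 3.02, and no test of behaviour is given for them. Hspa1a, the classic stress-induced Hsp70, had log2 values of 2.30 to 2.72 with a median of 2.35, and Hspb1, the small heat shock protein also called Hsp25 or Hsp27, had 2.79 to 3.00 with a median of 2.84. Hspb8, a partner of the co-chaperone Bag3, had a median of 2.95 and reached 3.52 in rat 2. Probe sets that the annotation gives to Hspa8, Hsp90aa1 and Hspa1b name a further gene as well, and these 4 probe sets were not used here. Levels of Hspa8 and Hsp90aa1 are therefore not described. The probe set of Hspa1b also names Hspa1a, so the values of Hspa1a above come from 1 other probe set alone. Above the filter were 8 of 8 CCT subunits, 13 of 13 chaperones of the endoplasmic reticulum, 5 of 5 mitochondrial chaperones, 7 of 7 class A and B J proteins of the cytosol and 3 of 3 J proteins of vesicles and synapses.

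Chaperone mRNA varied modestly between rats. The median SD over the 9 rats was 0.15 (log2) for the 54 members and 0.19 for all 6793 genes, and the median fold between the highest and the lowest rat was 1.39 for members and 1.51 for all genes. A span of more than 2-fold was seen in 6 of 54 members (11.1%) and 1098 of 6793 genes (16.2%). These 6 were Dnajb9 with a span of 3.42-fold, Dnajc7 with 3.18-fold, Dnajc24 with 2.77-fold, Hspb6 with 2.73-fold, Dnajc1 with 2.25-fold and Hspa4 with 2.04-fold. The extremes fell on a few animals: rat 8 was the lowest rat for 18 members (33.3%) and for 22.0% of all genes, and rat 1 was the highest for 13 members (24.1%) and for 8.26% of all genes. Rat 3, which had the highest startle and the lowest locomotion, was the highest or the lowest for 16 members (29.6%) and for 31.1% of all genes.

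**Figure D1:**
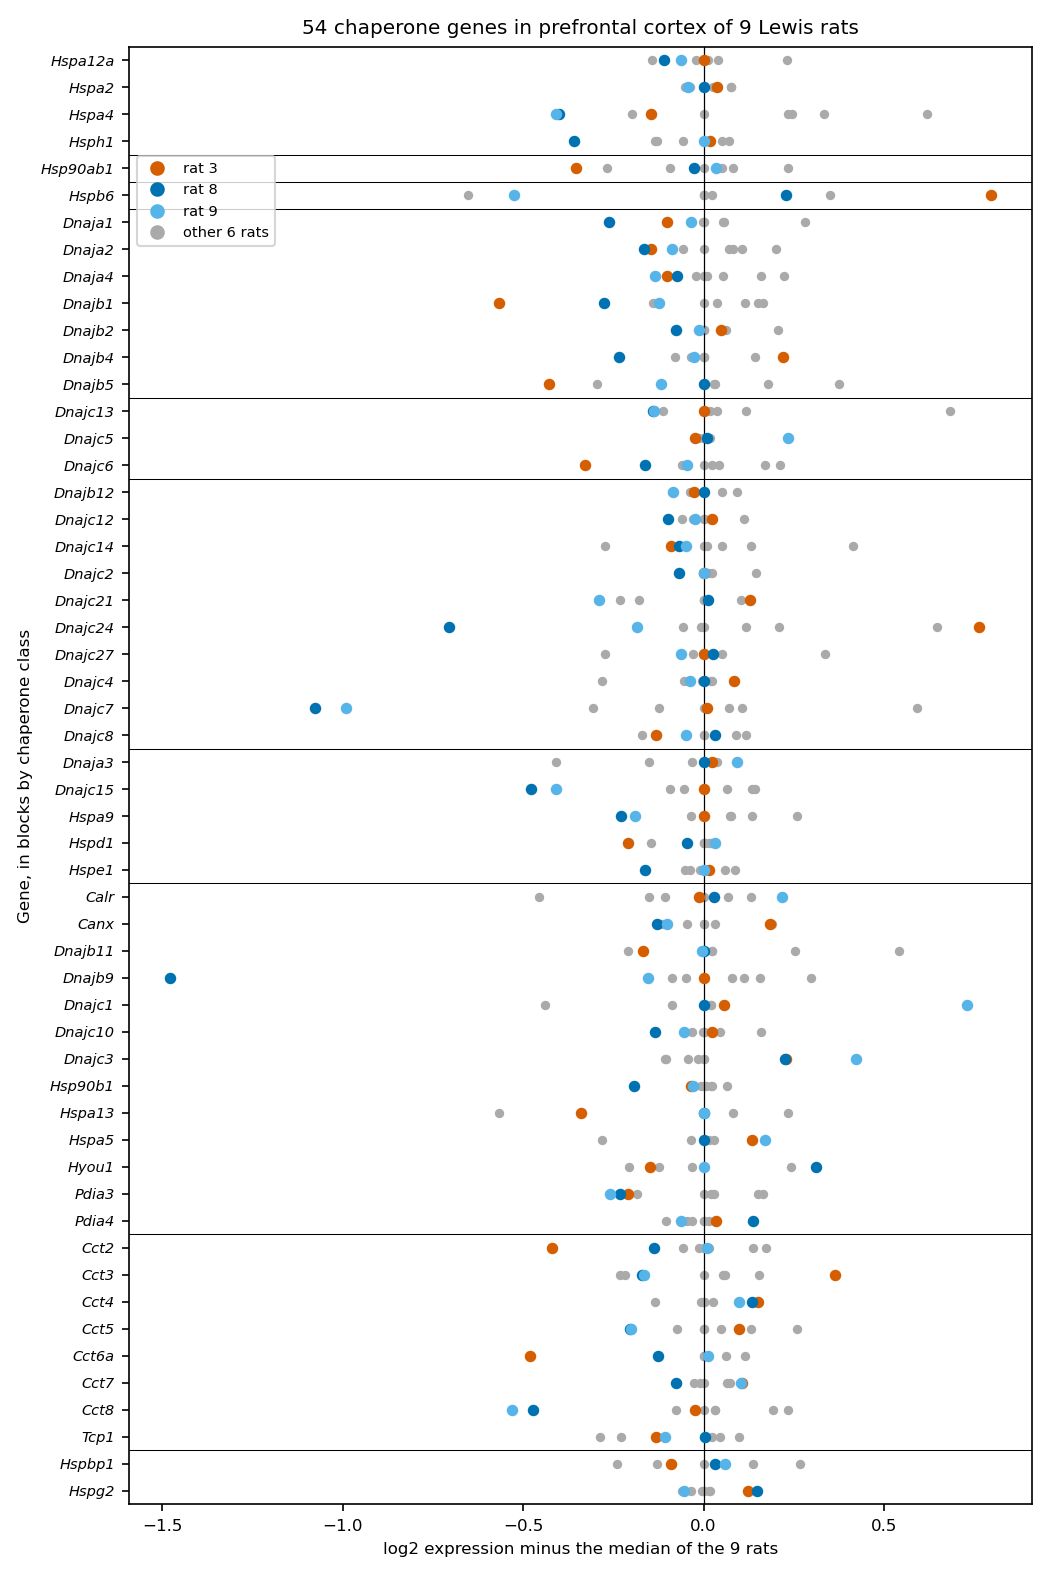
Log2 expression of each of the 54 chaperone genes above the filter, as the difference from that gene's median over the 9 rats (horizontal axis), with 1 point per rat, rats 3, 8 and 9 in colour, and genes in blocks by chaperone class. Dnajb9 in rat 8 and Dnajc7 in rats 8 and 9 lie farthest to the left, and Hspb6 and Dnajc24 reach their highest value in rat 3.

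Among the cytosolic Hsp70 and Hsp110 genes, Hsph1, the Hsp110 that exchanges nucleotide on Hsp70, had log2 values from 9.72 in rat 8 to 10.15 in rat 5 with a median of 10.08. Rat 8 stood below the other 8 rats, whose values began at 9.95. Hspa4, another Hsp110, had 7.54 and 7.53 in rats 8 and 9, against 7.74 to 8.56 in the other 7 rats, so the groups did not overlap. Hspa12a had 8.99 to 9.36 with a median of 9.13, and Hspa2 had 3.84 to 3.97 with a median of 3.89. For cytosolic Hsp90, Hsp90ab1, the constitutive isoform, had 12.04 in rat 3, 12.63 in rat 2 and a median of 12.40. Hspb6, the single small heat shock gene above the filter, had 6.66 in rat 7, 8.11 in rat 3 and a median of 7.32.

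Promoter sequence was at hand for 56 of the 67 members, 45 of them above the filter, as RefSeq windows on the rat build GRCr8 that run from 250 bases before to 50 bases after each gene's start. The heat shock element is the binding motif of the heat shock factors and was searched on both strands as GAA, TTC and GAA in this order with 2 bases of any kind between neighbours. It was found in 5 of the 45 members above the filter (11.1%), Cct4, Dnaja1, Hspd1, Hspe1 and Hsph1, and in 202 of 27457 windows of all genes (0.736%). The windows of Hsph1 (chr12:10427118-10427417, plus strand), Dnaja1 (chr5:60638154-60638453, plus strand) and Hspe1 (chr9:64084077-64084376, plus strand) are shown because their genes serve the folding cycle in the cytosol and in mitochondria. Capitals mark the motif, and in Hspe1 they mark 18 bases that hold overlapping matches.
Hsph1: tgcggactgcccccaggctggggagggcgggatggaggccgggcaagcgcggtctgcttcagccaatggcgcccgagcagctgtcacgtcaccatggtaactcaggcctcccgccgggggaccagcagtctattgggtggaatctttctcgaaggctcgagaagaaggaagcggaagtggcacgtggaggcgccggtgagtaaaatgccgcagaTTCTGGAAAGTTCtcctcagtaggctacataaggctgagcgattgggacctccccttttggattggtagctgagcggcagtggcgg
Dnaja1: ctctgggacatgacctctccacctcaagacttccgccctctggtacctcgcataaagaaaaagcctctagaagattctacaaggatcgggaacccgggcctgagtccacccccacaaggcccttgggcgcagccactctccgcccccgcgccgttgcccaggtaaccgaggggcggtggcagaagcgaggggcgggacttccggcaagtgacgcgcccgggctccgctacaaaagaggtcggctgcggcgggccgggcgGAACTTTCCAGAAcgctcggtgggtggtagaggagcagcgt
Hspe1: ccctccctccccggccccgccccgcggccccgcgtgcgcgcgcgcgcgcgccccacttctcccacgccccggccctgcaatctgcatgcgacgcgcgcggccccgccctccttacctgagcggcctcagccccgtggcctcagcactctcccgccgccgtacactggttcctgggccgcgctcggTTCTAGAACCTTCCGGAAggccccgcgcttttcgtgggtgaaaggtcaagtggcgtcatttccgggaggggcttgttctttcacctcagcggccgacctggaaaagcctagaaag
Counted from the start site, the match lies at -36 to -24 in Hsph1, at 9 to 21 in Dnaja1 and at -65 to -48 in Hspe1. Hspe1, the lid of the mitochondrial chaperonin, and Hspd1, its folding chamber, are read in opposite directions from start sites 290 bases apart, and their windows share 211 bases, which hold this motif in both. A match describes these letters and does not show binding.

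In the limma fit of behaviour, 0 of the 5 genes with a heat shock element had an unadjusted p under 0.05 for any of the 4 measures, beside 12.4% of all genes on startle, 1.91% on locomotion, 3.31% on plus maze and 1.35% on sugar feeding. Their slopes on startle, in log2 units for 1 SD of startle, ran from -0.021 to 0.089 and 4 of 5 were positive. The median correlation over their 10 pairs was 0.164 over 9 rats and 0.360 over 7 rats, given as a description of values that share their arrays. Dnaja1, a J protein of the cytosol, had 9.92 in rat 8, 10.46 in rat 1 and a median of 10.18. Hspe1 had 10.72 in rat 8, 10.97 in rat 1 and a median of 10.88, and Hspd1 had 9.85 in rat 3, 10.09 in rat 9 and a median of 10.06. Hspd1 and Hspe1, which share a promoter region, correlated at 0.198 over 9 rats and 0.304 over 7 rats (rho = 0.357 over 9 rats).

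In the endoplasmic reticulum, 13 of 13 members were measured and they did not move as a unit. Hspa5, the main Hsp70 of this compartment (BiP), had 10.21 in rat 2, 10.66 in rat 9 and a median of 10.49. Hsp90b1, the Hsp90 of this compartment (Grp94), had 10.55 in rat 8 and 10.71 to 10.81 in the other 8 rats. Between Hsp90b1 and Hspa5, r was -0.239 over 9 rats (rho = -0.644) and -0.483 over 7 rats. The lectin chaperone Calr had 9.59 in rat 7, 10.27 in rat 9 and a median of 10.05, and its membrane-bound counterpart Canx had 9.90 in rat 8, 10.22 in rat 2 and a median of 10.03. Pdia3, the disulfide isomerase that works with both lectins, had 9.94 and 9.91 in rats 8 and 9, against 9.96 to 10.33 in the other 7 rats. Pdia4, another disulfide isomerase, had 6.20 in rat 7, 6.44 in rat 8 and a median of 6.30, and Hyou1, the Hsp110 of this compartment, had 7.91 in rat 7, 8.43 in rat 8 and a median of 8.12.

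The endoplasmic reticulum stress response element, which the factor Atf6 reads together with NF-Y, was searched on both strands as CCAAT and CCACG with 9 bases of any kind between them. It was found in 5 of the 45 members above the filter with a window, Calr, Canx, Dnajc3, Hsp90b1 and Hspa5, and in 21 of 27457 windows (0.0765%). The CCAAT box alone, which is part of this element, was found in 25 of the 45 (55.6%) and in 37.7% of all windows. The windows of Hspa5 (chr3:38452766-38453065, plus strand) and Hsp90b1 (chr7:23012244-23012543, minus strand) are shown because these are the Hsp70 and the Hsp90 of the compartment. Capitals mark the element, which Hsp90b1 holds once on each strand.
Hspa5: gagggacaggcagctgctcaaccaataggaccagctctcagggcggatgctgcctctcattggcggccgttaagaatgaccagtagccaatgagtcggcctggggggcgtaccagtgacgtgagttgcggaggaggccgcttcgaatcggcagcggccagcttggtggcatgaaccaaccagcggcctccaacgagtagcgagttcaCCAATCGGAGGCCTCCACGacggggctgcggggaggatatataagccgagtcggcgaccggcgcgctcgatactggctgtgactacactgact
Hsp90b1: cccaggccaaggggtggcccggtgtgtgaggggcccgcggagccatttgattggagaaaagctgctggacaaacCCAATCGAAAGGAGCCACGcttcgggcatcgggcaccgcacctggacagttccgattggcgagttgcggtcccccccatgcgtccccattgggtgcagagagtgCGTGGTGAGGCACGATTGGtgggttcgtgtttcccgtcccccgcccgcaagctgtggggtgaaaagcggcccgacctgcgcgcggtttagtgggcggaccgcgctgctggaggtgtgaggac
The element lies at -43 to -25 in Hspa5 and at -176 to -158 and -72 to -54 in Hsp90b1. The 5 genes that hold it had a median pair correlation of -0.077 over 9 rats and -0.239 over 7 rats, and again 0 of 5 had an unadjusted limma p under 0.05 for any measure, beside the same shares of all genes as above (12.4%, 1.91%, 3.31% and 1.35%).

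Among the J proteins of the endoplasmic reticulum, Dnajb9 and Dnajc1 had the widest spans of the class. Dnajb9 (ERdj4), which takes part in the degradation of misfolded proteins, had 5.56 in rat 8, 6.88 in rat 9 and 6.95 to 7.33 in the other 7 rats. Dnajc1, a J protein of the reticulum membrane, had 5.76 in rat 9 and 4.59 to 5.09 in the other 8 rats. Dnajc3, also called p58IPK, had 3.65 in rat 9, 3.12 in rat 2 and a median of 3.23, close to the filter at 3.22. Dnajb11, a J protein that works with Hspa5, had 7.06 in rat 1 and a median of 6.52. Dnajc10, a reductase of wrongly formed disulfide bonds, spanned 8.90 to 9.19. Dnajc1 and Hspa5, singled out of the 78 pairs of the class after their values were seen, correlated at 0.835 over 9 rats and 0.938 over 7 rats (rho = 0.776 over 9 rats). Both genes were lowest in rat 2 and highest in rat 9, and Dnajc1 had 4.94 to 5.09 in the other 7 rats. The 7-rat value thus rests largely on rat 2.

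CCT is a ring of 8 different subunits, and their mRNAs did not vary in step. Tcp1, the alpha subunit, had 10.05 in rat 6, 10.44 in rat 1 and a median of 10.34. Cct2 had 9.25 in rat 3, 9.84 in rat 1 and a median of 9.67, and Cct6a had 8.78 in rat 3 and 9.14 to 9.38 in the other 8 rats. In contrast, Cct3 had its highest value in rat 3, 9.61, with 9.01 in rat 4 and a median of 9.25, and Cct4 had 9.47 in rat 3, 9.18 in rat 7 and a median of 9.32. Cct7 spanned 9.90 to 10.08 with a median of 9.97. Cct5 had 9.35 in both rat 8 and rat 9, against 9.48 to 9.81 in the other 7 rats. Cct8 had 7.56 and 7.50 in rats 8 and 9, against 7.95 to 8.26 in the other 7 rats. The fold span per subunit ran between 1.13 for Cct7 and 1.70 for Cct8.

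Over the 28 pairs of CCT subunits the median correlation was 0.096 over 9 rats and 0.136 over 7 rats, beside 0.105 and 0.115 over all 1431 pairs of members. Cct2 and Cct6a ran together with r = 0.904 over 9 rats and 0.902 over 7 rats (rho = 0.763). Both were lowest in rat 3, which is among the 7 rats, so the 7-rat value is no check on that animal. The second probe set of Cct6a correlated with the one used at -0.098 over 9 rats. Cct5 and Cct8 ran together with r = 0.885 and 0.686 (rho = 0.703). Cct2 and Cct4 ran opposite to each other with r = -0.748 over 9 rats and -0.837 over 7 rats (rho = -0.610). Here too rat 3 was at the end of the range, lowest for Cct2 and highest for Cct4. Single arrays carried much of this: without rat 1 the median over the 28 pairs was -0.160, and without rat 3 it was 0.202.

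Among the class A and B J proteins of the cytosol, Dnajb1, the stress-induced partner of Hsp70, had 8.50 in rat 3, 9.23 in rat 6 and a median of 9.06. Dnaja2 spanned 9.90 in rat 8 to 10.27 in rat 1, and Dnaja4 spanned 8.59 in rat 9 to 8.94 in rat 6. At the probe sets used, Dnaja1, Dnaja2, Dnaja4 and Dnajb1 varied together, a group singled out after their values were seen. Their 6 pairs had r between 0.575 and 0.836 over 9 rats and between 0.516 and 0.787 over 7 rats. Second probe sets correlated with those used at 0.582 for Dnaja1, 0.216 for Dnaja4 and 0.369 for Dnajb1 over 9 rats. Over 7 rats these values were 0.030, -0.122 and 0.539, so the joint variation is shown for the probe sets used alone. Dnajb4, a further member of the class, had 8.84 in rat 8, 9.30 in rat 3 and a median of 9.08, and Dnajb5 had 7.83 in rat 3, 8.63 in rat 7 and a median of 8.25. For the synapse, Dnajc5, the cysteine string protein that protects synaptic vesicle proteins, had 10.64 in rat 9 and 10.39 to 10.43 in the other 8 rats. Dnajc6, the neuronal auxilin that uncoats clathrin vesicles, had 11.02 in rat 3, 11.56 in rat 1 and a median of 11.35, and Dnajc13, a J protein of endosomes, had 6.39 in rat 5 and 5.56 to 5.82 in the other 8 rats.

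Relations with behaviour were tested with limma as the slope of log2 expression on the measure in units of its SD, with Benjamini-Hochberg adjustment over all 9520 probe sets tested. An SD of startle was 142, of locomotion 173, of plus maze 7.36 and of sugar feeding 1.19. For no measure did any of the 54 members or any other probe set pass an adjusted p of 0.05, so the relations below are ordered by unadjusted p and read against the share of all genes at the same unadjusted p. Correlations carry exact permutation tests, two-sided, over all 362880 orders of the rats. In all, 216 relations of members with measures were computed.

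Startle gave the most relations, and their share was no larger than among all genes. At an unadjusted limma p under 0.05, 6 of 54 members (11.1%) were related to startle, all 6 with a positive slope, beside 12.4% of all genes in either direction, 7.79% with a positive and 4.64% with a negative slope. The lowest adjusted limma p of a member was 0.245. Over the 7 rats other than 8 and 9, 6 of 54 members were again under 0.05, beside 12.6% of all genes, namely Calr, Cct3, Dnajb4, Dnajc24 and Hspb6 with positive slopes and Dnajb5 with a negative one. The 6 over 9 rats were Dnajc24, Cct3, Dnajb4, Cct5, Dnajc15 and Dnajb9, and 5 of the 6 had their lowest value in rat 8, which also had the lowest startle. Rat 3 moved the count as well: without rat 3, 11 of 54 members were under 0.05. The share of all genes without rat 3 was not computed, so this count has no background beside it. The median slope was 0.020 for the 54 members and 0.021 for all genes.

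Dnajc24, a J protein of diphthamide synthesis, had 3.81 in rat 8, 5.28 in rat 3 and a median of 4.52. Its slope on startle was 0.39 ± 0.07 (SE, n = 9 rats) and 0.31 over the 7 rats, and 0.32 when rats 1 and 3, whose startle lay farthest out, were omitted. Pearson r was 0.905 (exact permutation p = 0.00106, adjusted p = 0.343), while Spearman rho was 0.783 (p = 0.0172, exact permutation). Over 7 rats r was 0.878 (exact permutation p = 0.0119), and without rats 1 and 3 it was 0.723 (exact permutation p = 0.0639). The second probe set of Dnajc24, below the filter, had a slope of 0.015. Dnajb4 followed Dnajc24 closely across rats, with r = 0.966 over 9 rats and 0.959 over 7 rats (rho = 0.848), the highest of the 1431 pairs over 9 rats. Its own slope on startle was 0.11 ± 0.03 (SE), with a Pearson r of 0.872 (exact permutation p = 0.00253, adjusted p = 0.343), while Spearman rho was 0.627 (p = 0.0787, exact permutation). Over 7 rats r was 0.805 (exact permutation p = 0.0357), and without rats 1 and 3 it was 0.622 (exact permutation p = 0.155), so the relation rests in part on those 2 animals.

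Cct3 and Cct5, subunits of CCT, also had positive slopes. For Cct3 the slope was 0.16 ± 0.04 (SE), with a Pearson r of 0.821 (exact permutation p = 0.00664, adjusted p = 0.380), while Spearman rho was 0.750 (p = 0.0255, exact permutation). Over 7 rats r was 0.818 (exact permutation p = 0.0232), and without rats 1 and 3 it was 0.503 (exact permutation p = 0.254). For Cct5 the slope was 0.12 ± 0.04 (SE), with a Pearson r of 0.785 (exact permutation p = 0.0130, adjusted p = 0.380), while Spearman rho was 0.812 (p = 0.0108, exact permutation). Over 7 rats r was 0.767 (exact permutation p = 0.0409), and without rats 1 and 3 it was 0.678 (exact permutation p = 0.0925). The unadjusted limma p of Cct5 was no longer under 0.05 without rat 1, at a slope of 0.095, or without rat 8, at a slope of 0.11. The other 6 subunits had slopes between -0.061 for Cct6a and 0.16 for Cct8, none of them under 0.05.

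Dnajc15, a J protein of the mitochondrial inner membrane, and Dnajb9 had smaller slopes without rats 8 and 9. Dnajc15 had 7.22 and 7.29 in rats 8 and 9, against 7.60 to 7.84 in the other 7 rats, and its slope was 0.14 over 9 rats and 0.052 over 7 rats. The slope of Dnajb9 was 0.32 over 9 rats and 0.047 over 7 rats. On the negative side the leading members were Dnajb5 with a slope of -0.13, Hspbp1, a co-chaperone that binds Hsp70, with -0.069, Hyou1 with -0.070 and Dnajc14 with -0.070, none of them under 0.05. Over 7 rats the slope of Dnajb5 was -0.20 and its unadjusted limma p was under 0.05.

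Some values at startle were picked out after they were seen. Dnajc12, a J protein that binds aromatic amino acid hydroxylases, ordered the rats nearly as startle did, with a Spearman rho of 0.962 (p = 0.000165 by exact permutation, adjusted p = 0.225 over 9520 probe sets) beside a Pearson r of 0.869 (exact permutation p = 0.00175). Without rats 1 and 3 its r was 0.936 (exact permutation p = 0.00238), and over 7 rats 0.796 (exact permutation p = 0.0187). The size was small, at a slope of 0.051 and values of 6.76 in rat 8 and 6.97 in rat 1, and its limma p was not under 0.05. Hspb6 had a slope of 0.23 over 9 rats and 0.36 over 7 rats, and the 7-rat slope was under 0.05. Second probe sets of Dnaja1 and Hspa9 had slopes of 0.16 and 0.22, both with an unadjusted limma p under 0.05, whereas the probe sets of highest mean had 0.063 and 0.020 and did not. Markers of 2 other cell types were highest in rat 3: the mean of the endothelial markers above the filter (3 of the 4 with a probe set, Pecam1 below it) was 7.53 in rat 3 and 6.96 to 7.28 in the other 8 rats, and that of the microglial markers (4 of 6) was 6.70 in rat 3 and 5.90 to 6.30 in the others. Over the 9 rats these 2 means correlated with startle at 0.742 and 0.508. The mean of the cortical excitatory markers correlated at -0.570, and the other lists with a marker above the filter lay between -0.479 and 0.469. Their part in these relations was not tested.

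**Figure D2:**
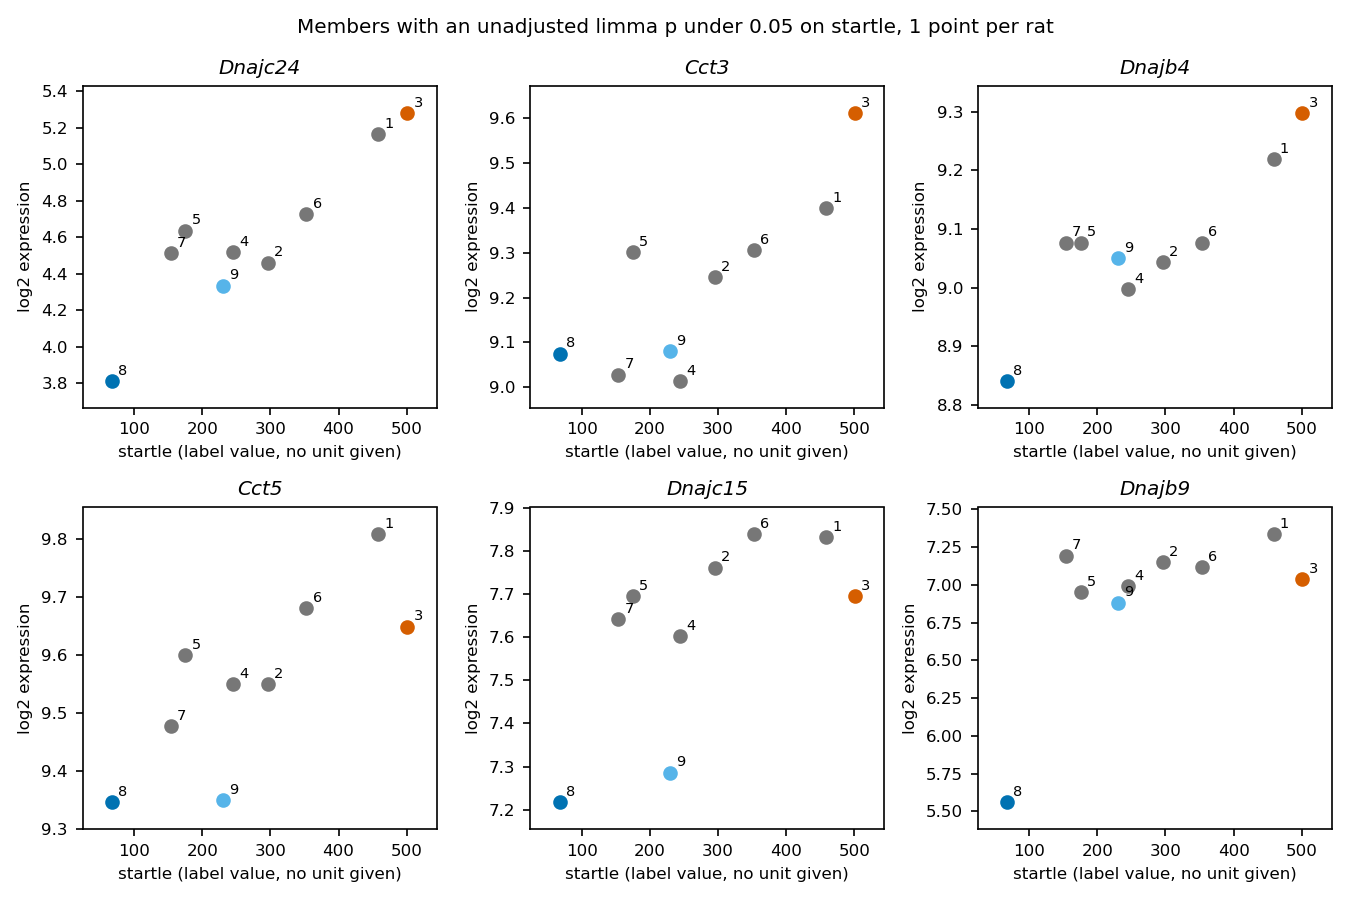
Log2 expression (vertical axis) against the startle value, which has no stated unit (horizontal axis), for the 6 members with an unadjusted limma p under 0.05, with 1 numbered point per rat. Rat 8 is lowest for 5 of the 6 genes, and the points of Dnajb9 other than rat 8 lie between 6.88 and 7.33.

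Locomotion gave 1 member of 54 (1.85%) at an unadjusted limma p under 0.05, beside 1.91% of all genes, 0.545% with a positive and 1.37% with a negative slope. This was Tcp1, with a slope of 0.096 ± 0.040 (SE) and an adjusted limma p of 1.00. Tcp1 had a Pearson r of 0.727 (exact permutation p = 0.0249), while Spearman rho was 0.800 (p = 0.0138, exact permutation). Its r was 0.738 over 7 rats (exact permutation p = 0.0421) and 0.701 without rats 1 and 3, which lay farthest out (exact permutation p = 0.0925). Without rat 1, 4, 6, 7 or 8 in turn, its unadjusted limma p was no longer under 0.05, with slopes between 0.078 and 0.11. The other leading members with positive slopes were Dnajb11 with 0.14, Hsp90ab1 with 0.095 and Hyou1 with 0.091, and the value of Dnajb11 rested on rat 1: its r was 0.615 over 9 rats (exact permutation p = 0.0809) and -0.281 without rats 1 and 3 (exact permutation p = 0.596).

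The leading members with negative slopes on locomotion were Dnajc21, a J protein of ribosome assembly, with -0.093, Dnajb2, a J protein abundant in neurons, with -0.053, Cct7 with -0.040 and Dnajc14 with -0.067. Dnajc21 had r = -0.628 over 9 rats (exact permutation p = 0.0707) and -0.869 over 7 rats (exact permutation p = 0.00595). Over 7 rats 4 of 54 members (7.41%) were under 0.05, Dnaja1, Dnaja2, Dnajb11 and Dnajc21, beside 4.4% of all genes. The slopes of Dnaja1 were 0.098 over 7 rats and 0.043 over 9 rats, and those of Dnaja2 0.098 and 0.056. The second probe set of Dnaja1 had a slope of -0.051 over 9 rats, opposite in sign to the first. The count moved with single animals: it was 6 without rat 1, 4 without rat 8, 2 without rat 5 or 9, and 0 without rat 7. Shares of all genes in these fits were not computed. The median slope was 0.0063 for members and -0.013 for all genes.

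Plus maze gave 1 member of 54 as well, Dnaja4, beside 3.31% of all genes, 2.8% with a positive and 0.515% with a negative slope. Dnaja4, a class A J protein of the cytosol, had a slope of 0.091 ± 0.035 (SE) and an adjusted limma p of 0.999. It had a Pearson r of 0.779 (exact permutation p = 0.0177), while Spearman rho was 0.849 (p = 0.00608, exact permutation). Over 7 rats r was 0.769 (exact permutation p = 0.0444) and without rats 2 and 6, which share the highest plus maze value, it was 0.817 (exact permutation p = 0.0258). Its second probe set correlated with the first at 0.216 over 9 rats and at -0.122 over 7 rats. The call was lost without rat 6, at a slope of 0.069, and without rat 9, at a slope of 0.082.

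Dnajc27, a Rab-like GTPase with a J domain, Hspa13, an Hsp70 of microsomes, and Dnajb1 followed with slopes of 0.097, 0.13 and 0.13, none under 0.05. On the negative side stood 3 genes of the endoplasmic reticulum and 1 of the cytosol: Hspa5 with -0.089, Dnajc1 with -0.17, Dnajc3 with -0.091 and Hspa12a with -0.042. Single rats moved these slopes: Hspa5 had -0.036 without rat 2 and -0.15 without rat 6, Dnajc1 had -0.089 without rat 9, -0.095 without rat 2 and -0.26 without rat 6, Dnajc3 had -0.051 without rat 9, and Hspa12a had -0.017 without rat 6 and -0.025 without rat 5. Hspa5 had r = -0.696 (exact permutation p = 0.0300) and its lowest value in rat 2, which shares the highest plus maze value with rat 6. Without rats 2 and 6 its r was -0.650 (exact permutation p = 0.100) and over 7 rats -0.645 (exact permutation p = 0.0913). Over 7 rats 0 of 54 members were under 0.05 in the limma fit, beside 3.71% of all genes. Without rat 5 or rat 6 the count was 3, and without rat 9 it was 0, with no share of all genes computed for these fits. The median slope was 0.012 for members and 0.016 for all genes.

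Sugar feeding gave 1 member of 54, Hyou1, beside 1.35% of all genes, 0.765% with a positive and 0.589% with a negative slope. Hyou1 had 8.43 in rat 8 and 8.36 in rat 4, the highest on sugar feeding, and 7.91 to 8.12 in the other 7 rats. It had a Pearson r of 0.785 (exact permutation p = 0.0151), while Spearman rho was 0.661 (p = 0.0607, exact permutation), with an adjusted limma p of 1.00. Over the 7 rats other than 8 and 9, r was 0.787 (exact permutation p = 0.0687), and without rats 4 and 8 it was 0.176 (exact permutation p = 0.705), so the relation rests on those 2 animals. Its second probe set, below the filter, had a slope of 0.0043.

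Tcp1 had a slope of 0.081 on sugar feeding, with r = 0.618 (exact permutation p = 0.0687) and 0.716 without rats 4 and 8 (exact permutation p = 0.0698). Dnajc14 had a slope of 0.080 over 9 rats and -0.23 without those 2 rats, and Dnaja3, a J protein of mitochondria, had 0.059. The leading members with negative slopes were Cct7 with -0.048, Pdia3 with -0.082, Hsph1 with -0.067 and Dnajc15 with -0.094, none under 0.05. Over 7 rats 1 of 54 members was under 0.05, again Hyou1, beside 2.49% of all genes. Without rat 4, 4 of 54 members were under 0.05, and the share of all genes in that fit was not computed. The median slope was -0.013 for members and -0.0059 for all genes.

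Counted by class, slopes fell on both sides of 0 in most classes and measures. The 13 members of the endoplasmic reticulum had 9 positive slopes on startle with a median of 0.022, and the 8 CCT subunits had 5 with a median of 0.022. These shares are near those over all members, 64.8%, and over all genes, 62.1%, where the median slope was 0.021. All 3 J proteins of vesicles and synapses had negative slopes on startle, each between -0.019 and -0.017, and none was under 0.05. On sugar feeding, 6 of 8 CCT subunits and 6 of 7 class A and B J proteins had negative slopes, with medians of -0.030 and -0.032. Over all members 38.9% of slopes on sugar feeding were positive, beside 44.1% over all genes. On locomotion these shares were 57.4% for members and 39.1% for all genes.

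**Figure D3:**
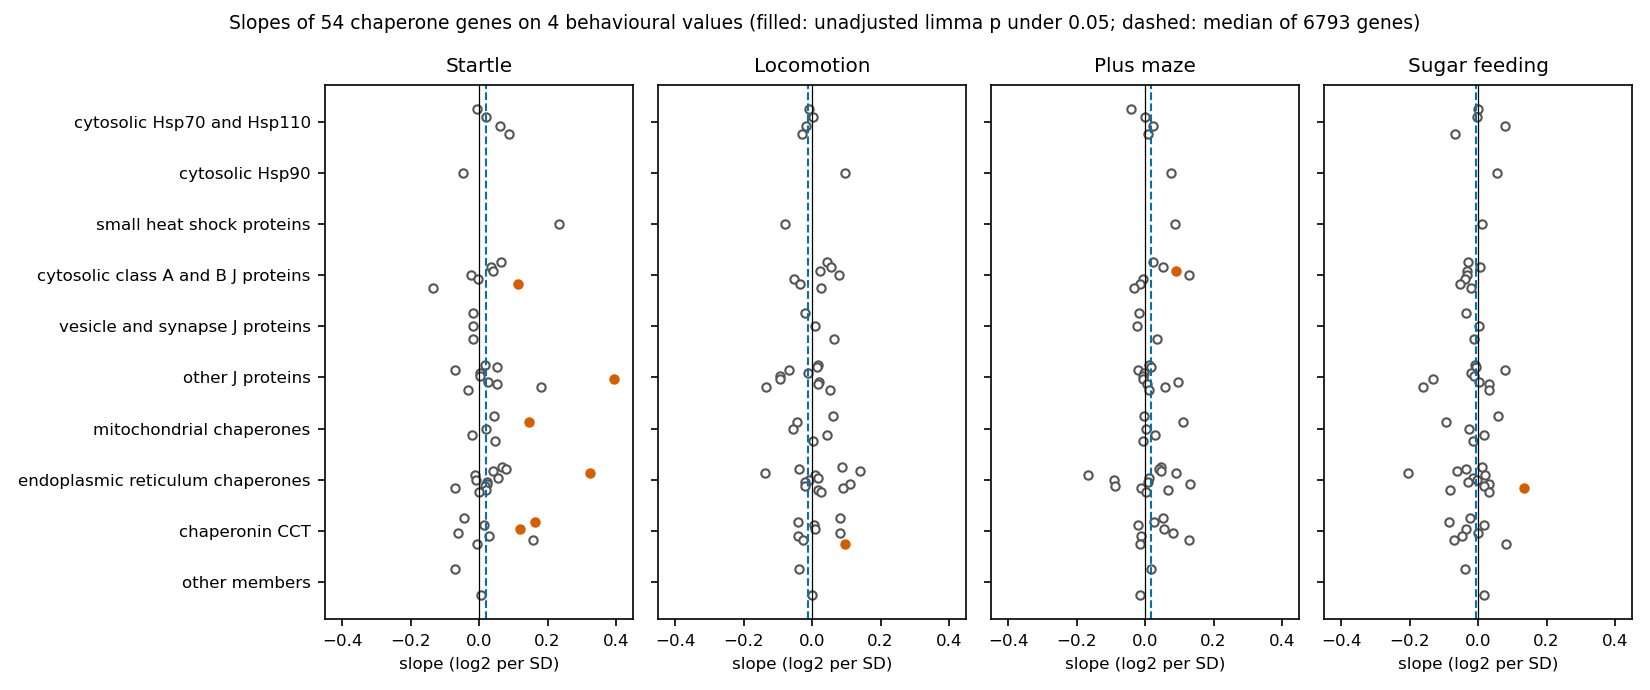
Slope of each of the 54 members on each behavioural value in log2 units per SD (horizontal axis), by chaperone class (vertical axis), with 1 point per gene, filled where the unadjusted limma p is under 0.05, and a dashed line at the median of all 6793 genes. The 9 filled points all lie on the positive side, 6 of them for startle, and none passes the adjusted threshold.

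The arrays of rats 8 and 9 set some chaperone genes apart. Both lay below the range of the other 7 rats for 10 of 54 members (18.5%) and above it for 0 members, beside 26.3% of all genes on either side, 6.58% above and 19.7% below. The 10 were Dnajc7, Dnajb9, Dnajc24, Hspa4, Cct8, Dnajc15, Hspa9, Cct5, Pdia3 and Dnajc10. Dnajc7, a J protein that binds both Hsp70 and Hsp90, had 5.59 and 5.67 in rats 8 and 9, against 6.36 to 7.26 in the other 7 rats, a difference of means of -1.08. The difference was -0.89 for Dnajb9, -0.68 for Dnajc24 and -0.56 for Hspa4. Hspa9, the Hsp70 of mitochondria, had 9.42 and 9.46 in rats 8 and 9, against 9.62 to 9.91 in the other 7 rats.

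The largest positive differences among members were 0.43 for Dnajc1, 0.33 for Dnajc3, 0.20 for Calr and 0.19 for Hyou1. All are genes of the endoplasmic reticulum, and in each the groups overlapped. Dnajc3 lay near the filter, at a mean of 3.30 beside the limit of 3.22. The class did not shift upward as a whole: its 13 members had a median difference of 0.057, and 3 of them lay below the range of the other 7 rats. The median difference was -0.075 over members and -0.085 over all genes. Probe sets of the same gene disagreed here: second probe sets differed by 1.85 for Cct6a, 0.74 for Hsp90ab1 and 0.54 for Dnajc5, where the first had -0.014, 0.055 and 0.13, and the 3 probe sets of Canx had -0.15, 0.41 and -0.55. The log2 signal of 3′ minus 5′ control probe sets, a reading of RNA length, was 2.02 and 1.14 for hexokinase in rats 8 and 9, against 2.41 to 2.91 in the other 7 rats, and 2.45 and 2.29 for beta-actin, against 2.52 to 3.08. For GAPDH it was 0.463 and 0.775 in rats 8 and 9, within the 0.454 to 0.826 of the other 7. Red cell markers (2 of 2 with a probe set) averaged 8.09 in rat 8 and 7.18 in rat 9, against 6.62 to 7.38 in the other 7 rats. The cortical excitatory markers above the filter (2 of 3 with a probe set) averaged 11.65 in rat 8 and 11.51 in rat 9, against 10.51 to 12.08 in the other 7 rats. Their part in these differences was not tested.

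**Figure D4:**
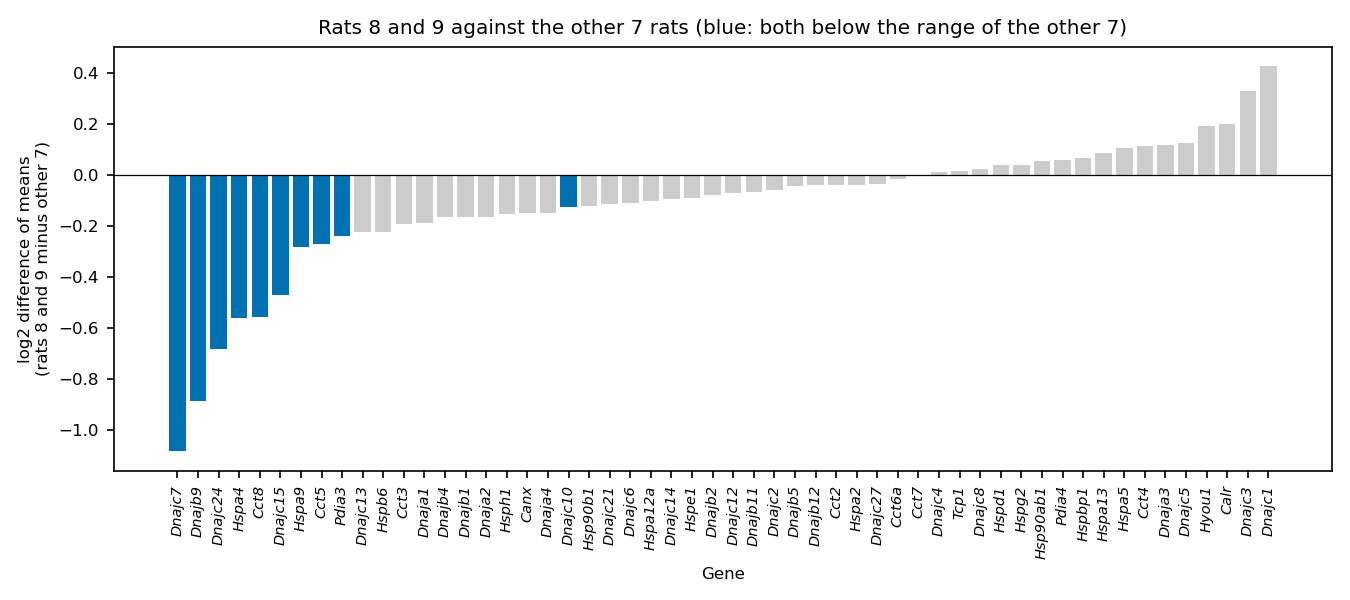
Difference of mean log2 expression, rats 8 and 9 minus the other 7 rats (vertical axis), for each of the 54 members (horizontal axis), sorted, with 1 bar per gene and in blue the 10 genes for which both rats lie below the range of the other 7. The bars run from -1.08 for Dnajc7 to 0.43 for Dnajc1.

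Median pair correlations within classes were low. The median pair correlation over all 1431 pairs was 0.105 over 9 rats and 0.115 over 7 rats. It was 0.229 and 0.135 for the 7 class A and B J proteins, 0.203 and 0.306 for the 5 mitochondrial chaperones, -0.029 and 0.047 for the 13 members of the endoplasmic reticulum, 0.191 and -0.129 for the 4 Hsp70 and Hsp110 genes, 0.087 and -0.037 for the 10 other J proteins, and -0.054 and 0.239 for the 3 J proteins of vesicles and synapses. With each rat left out in turn, the median ran from 0.158 without rat 8 to 0.533 without rat 3 for class A and B J proteins, where it was 0.388 without rat 1, and from 0.0735 without rat 7 to 0.334 without rat 3 for mitochondrial chaperones, where it was 0.131 without rat 1. For Hsp70 and Hsp110 genes it was -0.055 without rat 8, for the endoplasmic reticulum it ran from -0.069 without rat 7 to 0.050 without rat 3, for the other J proteins it was 0.022 without rat 9, and for vesicles and synapses it ran from -0.24 without rat 3 to 0.076 without rat 9. These pairs share their arrays, and the values are given as a description without a test. Some of the closest pairs, chosen after their values were seen, crossed compartments: Cct2 with Dnajc6 at 0.943 over 9 rats and 0.960 over 7 (rho = 0.717), and Dnajc10 with Hspe1 at 0.896 and 0.895 (rho = 0.787). For Cct2 and Dnajc6 rat 3 was the lowest and rat 1 the highest for both genes. Hsp90ab1 and Hspd1, also both lowest in rat 3, correlated at 0.870 and 0.876 (rho = 0.729).

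**Figure D5:**
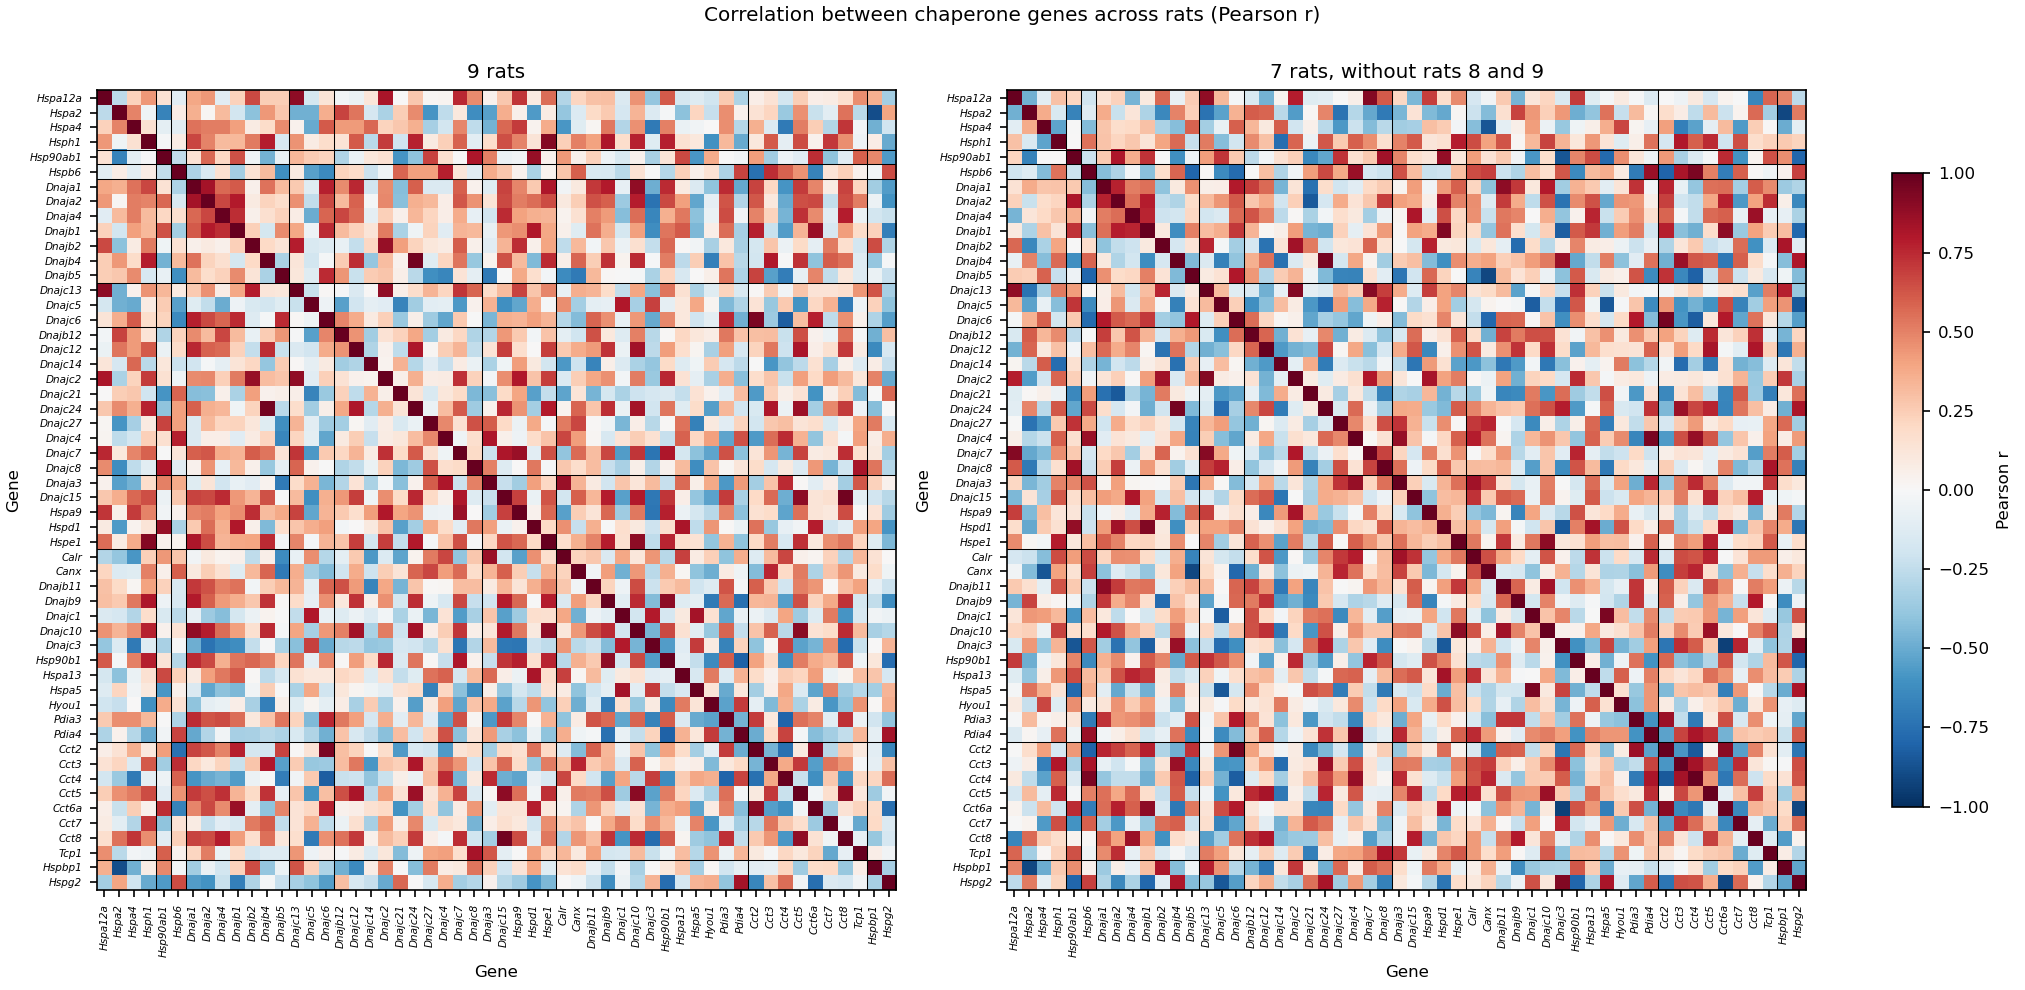
Pearson correlation across rats between each pair of the 54 members, in blocks by chaperone class, each member at its probe set of highest mean. The left panel holds all 9 rats and the right panel the 7 rats other than 8 and 9. A red block of Dnaja1, Dnaja2, Dnaja4 and Dnajb1 shows in both panels, and the CCT block at the lower right holds both red and blue cells, from -0.748 to 0.904 over 9 rats.

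Among genes that work with these chaperones, 26 of 36 listed heat shock regulators and co-chaperones were tested, 25 of 30 genes of the unfolded protein response and 11 of 15 genes of mitochondrial protein quality control, and none passed an adjusted limma p of 0.05 for any measure. On startle, co-chaperones had 1 positive and 2 negative slopes of 26 with an unadjusted p under 0.05, the unfolded protein response 1 and 1 of 25, and the mitochondrial list 2 and 0 of 11, beside 7.79% positive and 4.64% negative over all genes. Those of the co-chaperones were Sugt1, which binds Hsp90, with 0.13, and Sgta and Pdcl3, which serve Hsp70 and CCT, with -0.10 each. Those of the unfolded protein response were Trib3, a stress-induced pseudokinase, with 0.16 and Selenos, a selenoprotein of the degradation channel, with -0.14. Among mitochondrial genes Tomm22, an import receptor, had 0.16 and Clpx, an unfoldase, had 0.22. Over 7 rats the slopes of Sugt1 and Tomm22 were 0.033 and 0.057.

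On locomotion 0 genes of the 3 lists were under 0.05, beside 1.91% of all genes. On plus maze St13, an Hsp70 co-chaperone, had a slope of 0.15, Xbp1, a transcription factor of the unfolded protein response, had 0.091, and P4hb, a disulfide isomerase, had 0.14, the 3 genes of the lists under 0.05, beside 3.31% of all genes. On sugar feeding Pfdn5, a subunit of the prefoldin that hands clients to CCT, had -0.11 and Creld2, a stress-induced protein of the endoplasmic reticulum, had 0.14, beside 1.35% of all genes under 0.05. Hspa5, which the unfolded protein response induces, had a slope of -0.089 on plus maze, not under 0.05 and opposite in sign to Xbp1. A link between these genes was not tested.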

How the data were processed

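RNA from prefrontal cortex of 9 male Lewis rats was measured on 1 array each. Each deposited value is the log2 signal of a probe set, and per the submitters' processing notes the authors used R 2.6.2 and GCRMA, a method that models background from probe sequence, puts arrays on a common scale and combines the probes of a set. Its settings remain not given in the sources used here. Only the processed values were analysed. Of the 15923 probe sets, 57 controls and the lowest 40% by mean of the rest were left out, which kept 9520. The annotation gave 12783 probe sets 1 symbol, 312 several and 2771 none, and those with several were not named. Identical values on 2 or more arrays occurred for 29 of 54 members (53.7%) and 48.8% of all genes, so rank correlations hold ties. The number of arrays limits the precision, and with 1 array per rat the spread holds animal and technical differences.

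The labels define 1 group. A slope was fitted per measure with lmFit and eBayes (limma 3.58.1, R 4.3.3), with 7 residual degrees of freedom, two-sided p-values and adjustment by Benjamini-Hochberg over 9520 probe sets. Exact permutation tests ran over all 362880 orders of 9 rats or 5040 of 7 rats in Python 3.11.15 (scipy 1.17.1, numpy 2.4.6, pandas 2.3.3). Those over 9 rats were adjusted likewise. Those over 7 rats, whichever 2 were left out, were run for the members alone and were not adjusted. The smallest p these tests can give is 2.76e-06 over 9 rats and 0.000198 over 7 rats. Figures used matplotlib 3.10.9. The fit was tested on simulated data: when 200 of 9520 probe sets were given a slope of 0.25 on startle, it found 81.9% at an unadjusted p under 0.05, and 96.9% at a slope of 0.5. The members and all lists were chosen with earlier results of these data known. In each direction the 4 members of smallest limma p are named per measure, besides a set of well-known chaperones, the CCT subunits and the members farthest apart in rats 8 and 9. RefSeq promoter windows came from GRCr8, and no genome or protein sequence was used here. Alternatives were other filters, quantile normalization once more, an intensity trend, ranks, the other 3 measures as covariates, array weights, a term for rats 8 and 9, leaving out those rats, the 2 farthest rats or each rat in turn, the probe set of largest SD, and leaving out Hspg2.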

Additional observations from a re-analysis of the deposited data

Results flagged for a closer look

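In a group of 9, a gene was looked at again where the gap between its highest or lowest rat and the next, divided by the whole range, passed Dixon's critical value for that size. Chance gives this in about 5% of groups, and it occurred in 13 of 54 members (24.1%) and 1410 of 6793 genes (20.8%). Rat 8 stood apart for Dnajb9 (gap over range 0.745), Hsp90b1 (0.606) and Hsph1 (0.523), below the others in each. Rat 9 stood apart for Dnajc5 (0.845) and Dnajc1 (0.575), above the others. Rat 3 stood below the others for Cct6a (0.594), rat 2 for Hspa5 (0.543) and rat 7 for Dnaja3 (0.515). Rat 7 also stood below them for Dnajc4 (0.621). Rat 5 stood above the others for Dnajc13 (0.686), Dnajc2 (0.578), Hspa12a (0.515) and Dnajb2 (0.503). The causes were not tested.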

How the results depend on the processing

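Of the settings tried for single members, 477 kept direction and side of the unadjusted threshold, 26 lost it, 34 gained it and 7 reversed. When the 2 rats lying farthest out on a measure were omitted, the slopes reversed to 0.0039 for Hspbp1 and 0.051 for Dnajc14 on startle, -0.059 for Dnajb11 on locomotion, and -0.23 for Dnajc14 and 0.048 for Hsph1 on sugar feeding. With each rat left out in turn, Dnajc14 ran from -0.12 to 0.020 on locomotion and from -0.11 to 0.11 on sugar feeding. Counts of members under 0.05 on startle, 6 as reported, were 3 with the other 3 measures as covariates, 2 without the 2 farthest rats and 11 with no filter (of 67). On locomotion, 1 as reported, they were 2 with quantile normalization once more, 2 with covariates, 2 with array weights, 3 with a term for rats 8 and 9, 4 without them, 8 without the 2 farthest rats (7 of them negative) and 0 with the filter at 70%. On plus maze, 1 as reported, they were 2 with an intensity trend, 3 with ranks, 7 with array weights, 3 with no filter, and 0 with covariates, with a term for rats 8 and 9 or without them. On sugar feeding, 1 as reported, they were 2 with ranks and 2 with covariates. With each rat left out in turn the counts ran from 4 to 11, 0 to 6, 0 to 3 and 1 to 4 on startle, locomotion, plus maze and sugar feeding. Shares of all genes under these settings were not computed, except without rats 8 and 9. The counts therefore do not show whether members moved apart from the other genes. The median pair correlation moved to -0.13 for Hsp70 and Hsp110 genes without rats 8 and 9, and to 0.24 without them and -0.39 with the probe set of largest SD for J proteins of vesicles and synapses, which ran from -0.24 to 0.076 with each rat left out. The causes were not tested. No paired analysis was possible because the rats form 1 group. Members below the filter have no measured change, and 9 arrays limit every slope.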

Other observations

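Among the 13 members below the filter, 8 had their highest value in rat 3, Hspa1a with 2.72 and 2.30 to 2.42 in the other 8 rats, and Hspb1 with 3.00 and 2.79 to 2.86 in the others. These are low signals, with spans of 0.41 (log2) for Hspa1a and 0.21 for Hspb1. Rat 3 was the highest for 18.8% of all genes above the filter. The share of all genes below the filter was not computed, so the count is not read as particular to chaperones. Rat 3 also had the highest array median. Dnajb13, a J protein of cilia and sperm tails, had 4.00 in rat 8 and 2.58 to 2.89 in the other 8 rats, and Dnajc17 had 3.42 in rat 6 and 2.83 to 3.13 in the others. Hspa13 had the same value, 7.74, in 5 of the 9 rats.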
